A study of Caenorhabditis elegans with 10 samples.

Results

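The cytochrome P450 genes and the short-chain dehydrogenase genes of Caenorhabditis elegans were followed through cooling by ribosome profiling, which sequences the mRNA fragments that ribosomes protect. The members were taken by name. All genes whose symbol starts with cyp or dhs, a hyphen and a digit were collected, each was represented by the transcript whose mean over 5 conditions was highest, and members whose mean reached 1 FPKM were kept. FPKM is the number of footprints per kilobase of coding sequence, scaled to the depth of the column. The name rule found 104 of the 19985 genes in the table, 74 cyp and 30 dhs. Of these, 49 were kept, 26 cyp and 23 dhs, among 9945 kept genes in all.

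Cytochrome P450s are heme enzymes, mostly anchored in the endoplasmic reticulum, that insert an oxygen atom into fatty acids, sterols and foreign compounds. They take electrons from a reductase, which C. elegans encodes in emb-8, and in part from cytochrome b5. Short-chain dehydrogenases are oxidoreductases that use NAD(H) or NADP(H) on sterols, fatty acyl chains, sugars and carbonyl compounds, and they work in the cytosol, peroxisomes, mitochondria and lipid droplets. In worms both families are known from intestinal detoxification, fat storage, hormone synthesis and the lipid layer of the eggshell.

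All animals were wild type (N2) without transgene, drug or RNAi, grown at 20°C on OP50 bacteria to 1-day-old adults and collected whole. The 5 conditions, with 2 replicates each, were animals taken at 20°C, animals moved to 10°C for some hours (2 by the protocol, 3 by the treatment label), and animals that then stayed at 4°C and were sampled on day 1, day 3 or day 5. For the last group the titles say 5 days and the treatment label repeats 3 days, and the titles were followed. The 20°C animals were collected at the start, so the cold, the elapsed time and the age of the animals cannot be told apart. The deposited table held 1 pooled column per condition, so there is no replicate error or p-value, and each comparison sets pooled libraries against each other. From the FPKM and the coding lengths whole counts were recovered, which summed to 675550 at 20°C and 486109 at 10°C and to between 2657757 and 3058810 in the 3 columns at 4°C. Ratios are given with a 95% counting interval in parentheses, which covers counting error only. A difference was called at 2-fold on log2(FPKM + 0.5), and it is named clear, and written as a rise or a fall, where it also rested on at least 10 counts over both columns with an interval that left out 1. FPKM is relative within a column, so a fall of all translation in the cold is not seen in it. In whole animals, fewer cells of a type and fewer footprints per cell cannot be told apart.

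Markers of 5 tissues were present in the columns. The 7 intestinal markers, with none at 0, summed to 1240 FPKM at 20°C, 1221 at 10°C and then 1469, 1310 and 979.5 on days 1, 3 and 5 in the cold. Of the hypodermal markers, the adult collagen gene col-19 went from 452.6 FPKM at 20°C to 4.13 on day 5, and the germline markers summed to 247.9 FPKM at 20°C and 457.9 on day 5. Body wall muscle markers summed to 243.8 and 66.7 FPKM and neuronal markers to 99.9 and 240.7 at the same ends.

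Footprint levels were higher on the dhs family than on the cyp family. The kept dhs members had a median mean level of 12.9 FPKM (range 1.07 to 185.5) and the kept cyp members 2.96 FPKM (range 1.04 to 28.2), where the median of all kept genes was 8.95 FPKM. A mean of at least 10 FPKM was reached by 13 dhs members and by 3 cyp members. Most cyp genes were hardly seen. Of the 48 cyp genes below the minimum, 16 had no count in any column and the other 32 had at most 12 counts over all 5. Below it lay also 7 dhs genes, 1 of them without any count. Another member lay within 20 kb of 45 of the 74 cyp genes and of 2 of the 30 dhs genes. The counting rule for reads that map to several places was not stated. Its part in the low cyp levels was not tested. The members next to the minimum were cyp-33C4 at 1.04 and dhs-15 at 1.07 FPKM inside it, and cyp-42A1 at 0.91 and dhs-4 at 0.80 FPKM outside it. For 7 cyp and 3 dhs members, a single column carried the mean over the minimum.

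The median level of the kept cyp members was 2.55 FPKM at 20°C, 2.85 at 10°C and 2.46, 1.47 and 0.762 on days 1, 3 and 5 in the cold. For cyp-35C1, with 1488 coding nucleotides, 3 counts amount to 2.98 FPKM at 20°C, 4.15 at 10°C and 0.659 on day 5. The warm medians therefore rest on few counts. Of the 26 kept cyp members, 16 had their lowest value on day 5 and none had its highest value there, while day 5 was the lowest column of 25.8% and the highest of 24.7% of all kept genes. All 7 members that a single column carried over the minimum passed it through another column than day 5 and are among the 16, and without them the count was 9 of 19. The shares of all kept genes had no such exclusion. At equal counts the deepest column, day 5, has the lowest FPKM. Among the 16, cyp-25A2, cyp-25A3, cyp-33C9, cyp-34A8 and cyp-34A9 had equal counts on days 3 and 5, so depth alone ranks day 5 below day 3 there. The median of the kept dhs members was 16.8, 16.4, 6.52, 9.15 and 5.75 FPKM in the same order, and 10 of 23 had their lowest and 2 their highest value on day 5. The 3 dhs members that a single column carried are not among these 10. The median of all kept genes stayed between 7.50 and 9.32 FPKM.

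**Figure D1:**
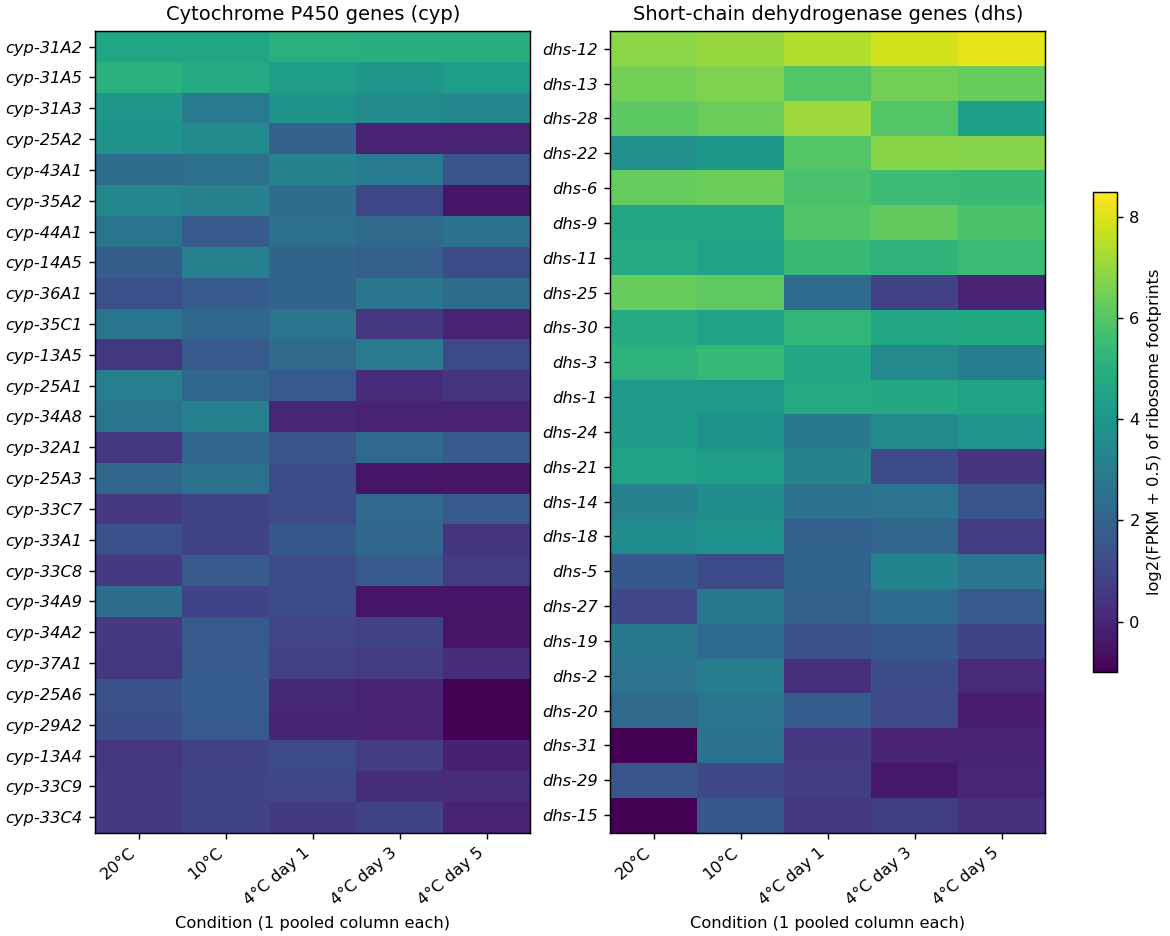
Levels of the 26 kept cyp members (left) and the 23 kept dhs members (right) in the 5 pooled columns, as log2(FPKM + 0.5) by colour, ordered by mean. The top cyp member, cyp-31A2, lies between 23.5 and 32.1 FPKM in all columns, while dhs-25 goes from 77.3 FPKM at 20°C to 0.438 FPKM on day 5 and dhs-12 from 116 to 286 FPKM.

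From 20°C to 10°C no member of either family changed clearly. At 2-fold, 6 cyp members were higher and 2 lower, against 12.2% higher and 9.10% lower among all kept genes, and 3 dhs members were higher and none lower. Clear differences were rare among all genes as well, 0.362% higher and 0.101% lower, and only 7 of 26 cyp and 15 of 23 dhs members had 10 counts over these shallow columns. The median log2 difference was 0.33 for cyp and 0.17 for dhs, against 0.06 for all genes. A second median leaves out members with at most 3 counts in both columns and sets a member at 0 in 1 column to a bound from 3 counts. This median at the bound was −0.26 for 13 cyp and 0.09 for 16 dhs members.

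Between 10°C and day 1 at 4°C, the dhs family moved in both directions. At 2-fold, 2 dhs members were higher and 8 lower, and 2 in each direction were clear. None of the cyp members was higher and 6 were lower, 1 of them clearly. Among all genes 17.8% were higher and 14.5% lower, and 4.92% and 3.08% clearly so. The median log2 difference was −0.39 for cyp and −0.72 for dhs, against 0.10 for all genes, and at the bound −0.16 over 24 and −0.65 over 20 members.

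From day 1 to day 3, falls were called in both families. At 2-fold, 6 cyp members were lower and 1 higher, with 4 of the lower ones clear, and 5 dhs members were lower and 1 higher, with 3 and 1 clear. The shares of all genes were 6.78% lower and 5.38% higher, or 3.36% and 2.06% clearly. The medians were −0.13 for cyp and 0.05 for dhs, and 0.04 for all genes, and at the bound −0.24 over 23 and −0.02 over 20 members.

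From day 3 to day 5 no member was 2-fold higher. Of the cyp members 6 were lower, 3 clearly, and of the dhs members 5 were lower, 1 clearly. Among all genes, too, more were lower than higher at this step, with 14.7% lower and 2.85% higher, and 7.74% and 1.12% clearly. The medians were −0.57 for cyp and −0.41 for dhs, against −0.08 for all genes, and at the bound −0.84 over 19 and −0.43 over 18 members.

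Over the whole path from 20°C to day 5, 10 cyp members were 2-fold lower and 3 higher, with 3 falls and no rise clear. Of the dhs members 10 were lower and 5 higher, with 5 falls and 3 rises clear. Among all genes 21.5% were lower and 23.6% higher, and 7.88% and 11.9% clearly. The median was −0.71 for cyp and −0.25 for dhs, against 0.13 for all genes, and at the bound it was −0.77 over 19 and −0.24 over 18 members. Comparisons that share a column are not independent of each other. In any of the 5 comparisons, 7 of 26 cyp and 9 of 23 dhs members had a clear difference, against 28.3% of all kept genes.

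**Figure D2:**
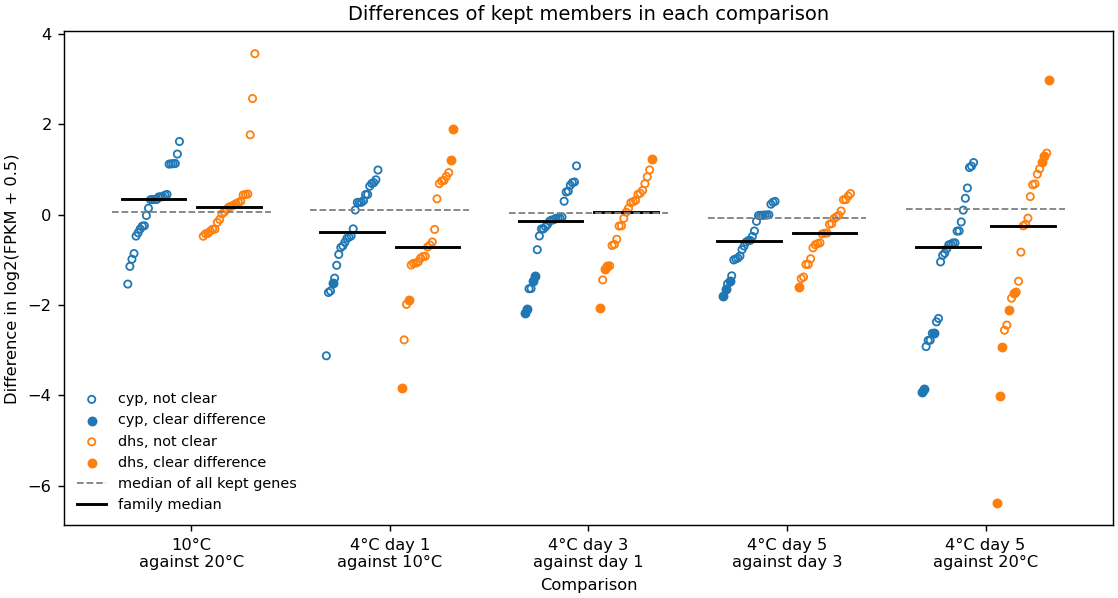
Difference in log2(FPKM + 0.5) of each kept cyp (blue) and dhs (orange) member in the 5 comparisons, with filled points for clear differences, a bar at the family median and a dashed line at the median of all kept genes. From 20°C to 10°C no point is filled, and from 20°C to day 5 the dhs points run from −6.37 to 2.97.

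The largest fall of any member was in dhs-25, a short-chain dehydrogenase gene on chromosome X (1486532 to 1489326, WBcel235). Its level was 77.3 FPKM at 20°C and 71.6 at 10°C, then 4.53, 1.35 and 0.438 on days 1, 3 and 5 in the cold. The warm columns held 39 and 26 counts and the cold ones 9, 3 and 1, although the cold columns were deeper. By day 5 the level was 177-fold lower than at 20°C (29.9 to 7151). In FPKM, most of this fall lay before the first cold sample. The level was lower again on each later day, from 4.53 FPKM on day 1 to 0.438 on day 5, on 9 and 1 counts. Within this, the 3.37-fold difference between day 1 and day 3 had an interval of 0.840 to 19.3.

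The gene dhs-28 encodes the peroxisomal dehydrogenase that carries out a step of beta-oxidation in the shortening of ascaroside side chains. It lies on chromosome X (6818438 to 6820080) and had 67.7 FPKM at 20°C, 81.6 at 10°C, 136.6 on day 1, 61.7 on day 3 and 19.95 on day 5, from 60, 52, 476, 241 and 80 counts. Its course was not one of steady decline, since day 1 was 1.67 times 10°C (1.26 to 2.27), short of 2-fold. It then fell 2.22-fold to day 3 (1.89 to 2.60) and 3.09-fold to day 5 (2.39 to 4.03), which left it 3.40-fold below 20°C (2.39 to 4.81).

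Several genes around dhs-28 in this pathway fell in the same interval. All 9 listed partners were kept, and from day 1 to day 3 7 of them were at least 2-fold lower, 5 clearly, and none higher, with a median log2 difference of −1.29, against 6.78% lower and 3.36% clearly lower among all kept genes. The acyl-CoA oxidase genes acox-1.1 and acox-1.5 fell 3.65-fold (2.18 to 6.35) and 3.93-fold (2.63 to 6.01), and nlt-1, which encodes a lipid transfer protein, fell 4.13-fold (2.70 to 6.51). Over the whole path 8 of 9 were lower, 5 clearly, against 21.5% and 7.88% of all kept genes. The enoyl-CoA hydratase gene maoc-1 had 51.2 FPKM at 20°C, 57.3 at 10°C, and 33.6, 10.8 and 5.1 in the cold, a 10.03-fold fall (5.18 to 20.4). The thiolase gene daf-22, which acts after dhs-28, fell 2.66-fold over the same path (1.88 to 3.73). On the step from 20°C to 10°C one oxidase gene of the list, acox-3, rose 2.78-fold (1.05 to 8.14).

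The gene dhs-3 encodes an abundant protein of intestinal lipid droplets. It lies on chromosome I (8212362 to 8218324) and had 35.04 FPKM at 20°C, 40.6 at 10°C and 25.2, 10.6 and 7.74 on days 1, 3 and 5 in the cold. The level fell 2.38-fold from day 1 to day 3 (1.28 to 4.62) and 4.53-fold from 20°C to day 5 (1.86 to 11.02). These values come from a transcript of 507 coding nucleotides. On its transcript with the most counts, of 924 nucleotides, the levels were 38.4, 33.4, 23.6, 13.1 and 8.14 FPKM. There the fall to day 5 was 4.72-fold (2.55 to 8.76), and the difference between day 1 and day 3 was 1.81-fold (1.17 to 2.82) and no longer called. A second dehydrogenase linked to lipid droplets, dhs-19, had 6.41, 4.45, 2.04, 2.54 and 1.415 FPKM from at most 7 counts a column, and no comparison of it was clear.

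Most of the other listed lipid droplet genes had no called difference over the whole path. Of 8 listed, from 20°C to day 5, 1 was 2-fold higher and 2 lower, against 23.6% and 21.5% of all kept genes. Clear were 1 rise and 1 fall, against 11.9% and 7.88% of all kept genes. The triglyceride lipase gene atgl-1 rose 4.02-fold (2.07 to 8.96) and the fatty acid transport gene acs-22 fell 5.66-fold (2.01 to 16.5). The other lower one, without a clear call, was the diacylglycerol acyltransferase gene dgat-2, with 9.98 FPKM at 20°C and 0.630 on day 5. It fell 6.73-fold from day 1 to day 3 (2.31 to 26.7), as the only 1 of the 8 called lower at that step, against 6.78% of all kept genes. The perilipin gene plin-1 was far more translated than dgat-2 or dhs-3, with 246.7 FPKM at 20°C and 384.5 on day 5.

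The gene dhs-21 encodes a reductase of L-xylulose and dicarbonyl sugars and lies on chromosome V (12731767 to 12733645). It had 21.5 FPKM at 20°C, 19.05 at 10°C, and 8.96, 1.77 and 0.865 in the cold, from 11, 7, 18, 4 and 2 counts. Each column was lower than the one before. The fall from day 1 to day 3 was 5.05-fold (1.66 to 20.5) and that from 20°C to day 5 24.9-fold (5.44 to 231).

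A further member of chromosome V, dhs-18 (11045705 to 11046833), fell at the first cold step. It had 11.7, 14.0, 3.41, 3.80 and 1.11 FPKM, from 7, 6, 8, 10 and 3 counts. The day 1 value was 4.10-fold below 10°C (1.17 to 13.5) and the day 5 value 10.6-fold below 20°C (2.41 to 63.3). Both warm columns lay above all 3 cold ones.

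Footprints on 4 dhs genes rose. The highest member at every condition, dhs-12 on chromosome IV (10142455 to 10146225), had 116 FPKM at 20°C, 131 at 10°C, and 167, 228 and 286 in the cold, from 60, 49, 341, 521 and 672 counts. Each column was higher than the one before, and no single step reached 2-fold. The rise from 20°C to day 5 was 2.47-fold (1.90 to 3.28).

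The steepest rise was in dhs-22 on chromosome V (14420071 to 14421440). It had 13.3 FPKM at 20°C, 16.4 at 10°C, 62.3 on day 1, 111 on day 3 and 108 on day 5, from 9, 8, 166, 333 and 330 counts. The cold columns lay apart from the warm ones, and days 3 and 5 were level. It rose 3.80-fold on the first day in the cold (1.88 to 8.94) and 8.10-fold from 20°C to day 5 (4.21 to 17.9). This took it from below the family median at 20°C to the second highest dhs level on day 5.

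The gene dhs-9 on chromosome III (5364512 to 5368045) rose at the same step as dhs-22 and then varied less. Its levels were 24.7, 25.7, 59.6, 74.1 and 55.5 FPKM. Day 1 was 2.32 times 10°C (1.29 to 4.58) and day 5 was 2.25 times 20°C (1.34 to 4.03). A later rise was seen in dhs-5 on chromosome II, which had 2.60, 1.81, 3.64, 9.15 and 5.75 FPKM from 2, 1, 11, 31 and 20 counts and rose 2.51-fold from day 1 to day 3 (1.23 to 5.54).

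Among the most translated dhs members, dhs-13 and dhs-6 had no clear difference. The levels of dhs-13 were 89.9, 101, 61.3, 88.8 and 77.3 FPKM, and day 5 was 0.860 times 20°C (0.621 to 1.21). The levels of dhs-6 were 75.4, 81.8, 53.6, 44.8 and 42.1 FPKM, and day 5 was 1.79-fold below 20°C (1.32 to 2.40), short of 2-fold. So of the 5 dhs members with the highest mean 2 rose, 1 fell and 2 had no called difference from 20°C to day 5. That mean includes the cold columns, through which dhs-22 ranks among them, so this tally is not independent of the changes.

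**Figure D3:**
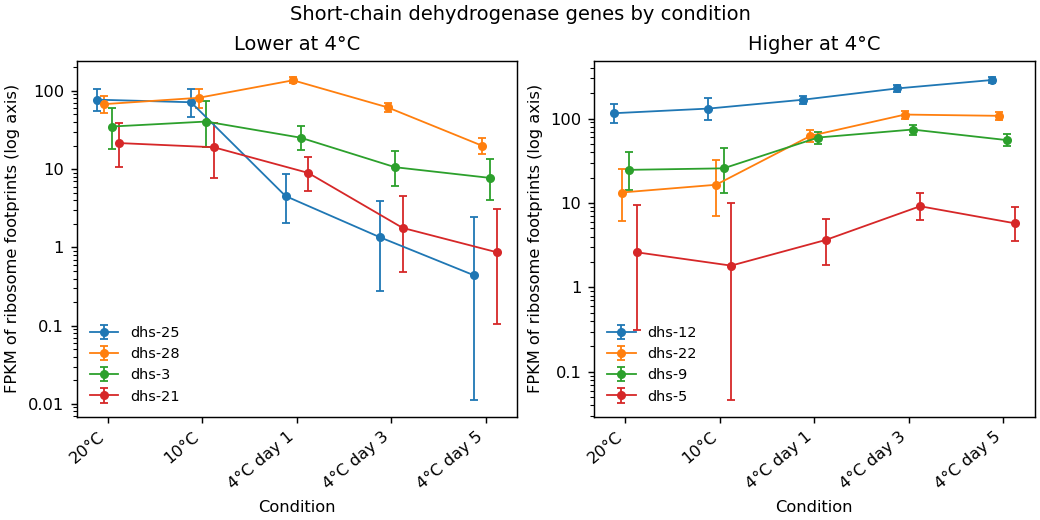
Levels of 8 dhs members in the 5 conditions, in FPKM on a log axis, with 95% counting intervals as bars. On the left, dhs-25 drops to 4.53 FPKM by day 1 and dhs-28 peaks at 136.6 FPKM on day 1; on the right, dhs-22 goes from 13.3 FPKM at 20°C to 108 FPKM on day 5.

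Dehydrogenases of sterol hormone synthesis could hardly be followed at this depth. The gene dhs-16 encodes the enzyme of a 3-hydroxysteroid step in dafachronic acid synthesis and had a single count, on day 3. Of 6 listed genes of the same pathway under other names, only daf-36, the Rieske oxygenase gene that acts first on cholesterol, was kept. It had 3.45 FPKM at 20°C, 3.20 at 10°C and 0.292 on day 1, and was at 0 on days 3 and 5, from 6 counts in all. The P450 gene daf-9, which bears no cyp name, had 3 counts in all.

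Of 10 listed genes of short-chain dehydrogenases under other names, 5 were kept. From 20°C to day 5, 1 was lower and none higher, against 21.5% lower and 23.6% higher among all kept genes. The lower one was let-767, which encodes a reductase of long fatty acyl and steroid substrates. It had 123, 106, 76.4, 63.1 and 51.2 FPKM, lower in each column than in the one before, and fell 2.40-fold (1.80 to 3.17).

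Among the P450 genes, the cyp-31A members were the most translated and had no clear difference in any comparison. Their products, CYP-31A2 and CYP-31A3, act with the EMB-8 reductase to make the lipid layer of the eggshell. The levels of cyp-31A2 (chromosome IV, 11403961 to 11406091) were 23.9 FPKM at 20°C, 23.5 at 10°C, and 32.1, 30.9 and 30.8 in the cold. The day 5 level was 1.29 times 20°C (0.831 to 2.08). The levels of cyp-31A3 (IV, 4761049 to 4762885) were 15.9, 6.91, 14.2, 11.3 and 10.1 FPKM, and day 5 was 0.635 times 20°C (0.353 to 1.2). The levels of cyp-31A5 (IV, 13401289 to 13403842) were 33.1, 27.6, 19.8, 15.8 and 19.4 FPKM, and day 5 was 0.585 times 20°C (0.344 to 1.03). These genes are close paralogs, and the counting rule for reads that map to several places was not stated, so their separate values are uncertain. Germline markers summed to 247.9 FPKM at 20°C, 309.5 at 10°C and 457.9 on day 5. Most of this was glh-1, with 173.7, 228.9 and 330.9 FPKM. The part of the germline in the cyp-31A levels was not tested.

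Of the cyp-25A genes, neighbours on chromosome III (3832591 to 3852080), cyp-25A1 and cyp-25A2 fell in the cold. The levels of cyp-25A2 were 13.7 FPKM at 20°C, 10.9 at 10°C and 3.49, 0.445 and 0.433 on days 1, 3 and 5 in the cold, from 14, 8, 14, 2 and 2 counts. It fell 3.12-fold on the first cold day (1.14 to 7.98), 7.85-fold from day 1 to day 3 (1.80 to 71.2) and 31.7-fold over the whole path (7.28 to 287). It was the only cyp member with a clear difference on the first cold day.

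Its neighbour cyp-25A1 had 7.85, 4.09, 2.74, 0.667 and 0.867 FPKM from 8, 3, 11, 3 and 4 counts. It fell 4.11-fold from day 1 to day 3 (1.09 to 23.0) and 9.06-fold from 20°C to day 5 (2.43 to 41.1). Next to them, cyp-25A3 had 3.92, 5.45, 1.75, 0.222 and 0.217 FPKM from at most 7 counts a column, too few for a clear call. In all 3 genes the values on days 3 and 5 lay below those of the other 3 columns, and cyp-25A4, with 9 counts in all, was below the minimum. As neighbouring paralogs they may share reads, so their falls are not independent of each other.

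Of the cyp-35 genes, known from the response to foreign compounds and from fat storage, 2 of 9 listed were kept. The levels of cyp-35A2 (V, 7362319 to 7364182) were 9.97, 8.31, 4.81, 1.58 and 0.220 FPKM, from 10, 6, 19, 7 and 1 counts. It fell 3.05-fold from day 1 to day 3 (1.23 to 8.57) and 45.3-fold from 20°C to day 5 (6.44 to 1965). The levels of cyp-35C1 (V, 13896663 to 13898487) were 5.97, 4.15, 5.82, 0.902 and 0.439 FPKM, from 6, 3, 23, 4 and 2 counts. Its value on day 1 was near that at 20°C, a pair that is not among the 5 comparisons. It then fell 6.45-fold to day 3 (2.20 to 25.7). Between 20°C and day 5 it was 13.6-fold lower (2.43 to 138), on fewer than 10 counts.

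The other cyp-35 genes gave little signal. The genes cyp-35B1, cyp-35B2 and cyp-35B3 had no count in any column. At a floor of 3 counts this allows cyp-35B1 up to 2.96 FPKM at 20°C, 4.11 at 10°C and 0.654 on day 5. Between 1 and 5 counts in all were found for cyp-35A1, cyp-35A3, cyp-35A4 and cyp-35A5. Summed over all 9 genes, the level was 19.9 FPKM at 20°C, 15.2 at 10°C, and 11.6, 2.71 and 0.660 in the cold. The 7 intestinal markers summed to 1240 FPKM at 20°C and 979.5 on day 5, of which asp-1 made up 935.9 and 581.1 FPKM and act-5 most of the rest. Among them, from 20°C to day 5, the proton pump gene vha-6 fell 45.3-fold (14.1 to 232) and the peptide transporter gene pept-1 fell 11.1-fold (5.34 to 24.8), while the other 5 were not called. Their part in the cyp-35 values was not tested.

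In a further pattern, the highest value lay within the cold. The levels of cyp-13A5 (II, 9798277 to 9800362) were 0.947, 2.63, 4.33, 7.08 and 1.67 FPKM, from 1, 2, 18, 33 and 8 counts. It was highest on day 3 and fell 4.23-fold to day 5 (1.92 to 10.6). The levels of cyp-33A1 (V, 7679314 to 7681459) were 2.00, 1.39, 2.54, 3.86 and 0.884 FPKM, with a fall of 4.36-fold from day 3 to day 5 (1.42 to 17.8). The levels of cyp-43A1 (X, 5714522 to 5717562) were 4.68, 5.2, 8.81, 7.21 and 2.27 FPKM, highest on day 1, with a fall of 3.17-fold from day 3 to day 5 (1.57 to 6.94). The warm columns held between 1 and 5 counts of each of these 3 genes, and no step up to the highest value was clear.

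**Figure D4:**
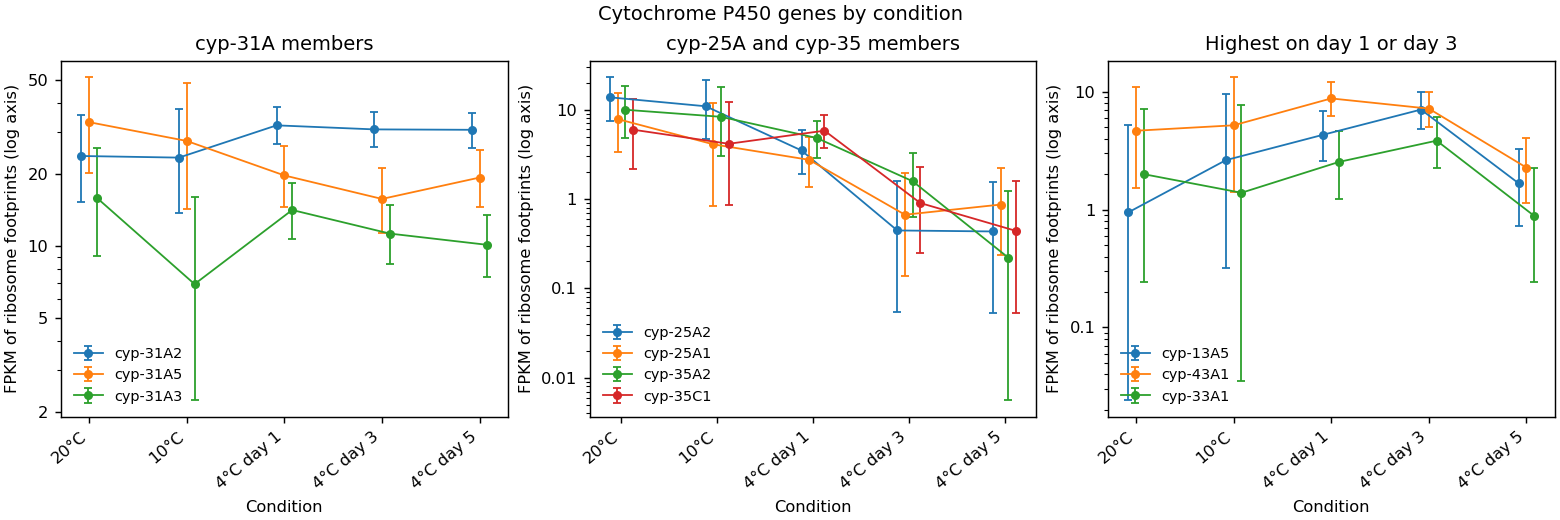
Levels of 10 cyp members in the 5 conditions, in FPKM on log axes, with 95% counting intervals as bars. The cyp-31A members (left) lie between 6.91 and 33.1 FPKM throughout, cyp-25A2 (middle) goes from 13.7 FPKM at 20°C to 0.433 FPKM on day 5, and cyp-13A5 (right) peaks at 7.08 FPKM on day 3.

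Other P450 genes with a known role had low counts. The gene cyp-36A1, which acts downstream of the oxygen sensing regulators EGL-9 and HIF-1, had 2.00, 2.78, 3.55, 6.11 and 4.63 FPKM and no clear difference. The mitochondrial type gene cyp-44A1 had 6.04, 2.80, 5.12, 4.34 and 5.34 FPKM, also without one. The gene cyp-34A9, regulated downstream of the transcription factor DAF-16, had 4.93, 1.37, 1.76, 0.224 and 0.218 FPKM from 5, 1, 7, 1 and 1 counts. Not kept were cyp-29A3 and cyp-33E2, which make eicosanoids and had 5 and 6 counts in all, and cyp-13A12, known from behaviour after reoxygenation, with 1 count.

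Most electron donors of the P450s were lower on day 5 than at 20°C. The reductase gene emb-8 had 32.7 FPKM at 20°C, 25.9 at 10°C, 38.6 on day 1, 29.7 on day 3 and 7.07 on day 5. Its values up to day 3 lay between 25.9 and 38.6 FPKM, and it fell 4.20-fold between day 3 and day 5 (2.99 to 6.01). At that step 7.74% of all kept genes fell clearly. Day 5 was 4.63-fold below 20°C (2.97 to 7.22). All 5 listed donors found in the table were kept, and from 20°C to day 5 4 were lower, 3 clearly, against 21.5% and 7.88% of all kept genes. The lower one without a clear call, T05H4.4, rests on 4 counts. The other clear falls were in the cytochrome b5 gene cytb-5.2, 3.60-fold (2.17 to 5.92), and in the cytochrome b5 reductase gene hpo-19, 2.46-fold (1.71 to 3.51).

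Regulators of detoxification and sterol genes had no clear difference over the whole path. Of 11 listed genes 8 were kept, and from 20°C to day 5, 1 was 2-fold higher and none lower. Among all kept genes 23.6% were higher and 21.5% lower, and 11.9% and 7.88% clearly. From day 3 to day 5 the nuclear receptor gene nhr-8 fell 3.90-fold (1.41 to 13.4). The SKN-1 gene, which drives many detoxification genes, had 22.03 FPKM at 20°C and 26.3 on day 5.

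As shares of all footprint counts, with 1 transcript per gene, the families kept their order. The 74 cyp genes took 0.0375% at 20°C (Wilson 95% interval 0.0321 to 0.0438), 0.0379% at 10°C, and 0.0328%, 0.0296% and 0.0224% (0.0203 to 0.0248) on days 1, 3 and 5 in the cold. The 30 dhs genes took 0.0955% (0.0866 to 0.105), 0.104%, 0.118%, 0.121% and 0.112% (0.107 to 0.117). From 20°C to day 5 the cyp share went to 0.598 times its size (0.496 to 0.724) and the dhs share to 1.17 times (1.05 to 1.31). The counting intervals of these ratios do not overlap, but they hold no variation between replicates or between members.

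Both family shares rested on few genes. The genes cyp-31A2, cyp-31A3 and cyp-31A5 together took 0.0141% at 20°C and 0.0137% on day 5, which was 0.967 times as much (0.726 to 1.31). The other 71 cyp genes took 0.0233% (0.0192 to 0.0284) at 20°C and 0.00876% (0.00747 to 0.0103) on day 5. By day 5 the top cyp gene, cyp-31A2, held 35.7% of the family's counts, up from 15.1% at 20°C. In the dhs family dhs-12 held 34.4% on day 5, and without dhs-12 and dhs-22 the ratio of shares was 0.688 (0.607 to 0.782) in place of 1.17. That interval overlaps the one of the ratio for all 74 cyp genes (0.496 to 0.724). The sets left out here were chosen after their values were seen.

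**Figure D5:**
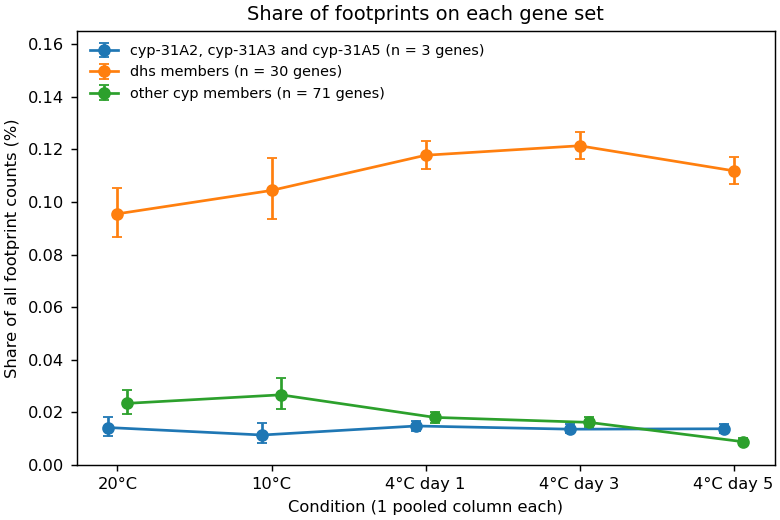
Share of all footprint counts, in percent, on the 30 dhs genes, on cyp-31A2, cyp-31A3 and cyp-31A5, and on the other 71 cyp genes, with Wilson 95% intervals as bars. The dhs share lies between 0.0955% and 0.121%, while the share of the other cyp genes goes from 0.0233% at 20°C to 0.00876% on day 5.

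The families also differed in their place in the genome. Chromosome V held 41 of 74 cyp genes, 13 of them kept, and 12 of 30 dhs genes, 9 of them kept. Within 20 kb of another member lay 45 cyp genes, of which 11 were kept, and 2 dhs genes, dhs-14 and dhs-15. The longest run, on chromosome V (3936326 to 3972991), held 10 members, cyp-35A5, the 3 cyp-35B genes and 6 cyp-34A genes, of which cyp-34A8 and cyp-34A9 were kept. In the run of 8 cyp-13A genes on chromosome II (9779181 to 9807569) cyp-13A4 and cyp-13A5 were kept, and in the run of 4 cyp-14A genes on chromosome X none was. By contrast, 3 of 4 cyp-25A genes in their run were kept. The kept cyp members had a median of 1489.5 coding nucleotides and the kept dhs members 924. No kept member overlaps the coding sequence of another gene.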

How the data were processed

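The deposited values were FPKM of ribosome footprints on coding sequences, which the authors had pooled over the 2 replicates of each condition. Their ORFik pipeline used fastp 0.23.4 to trim adapters, filtered contaminants such as rRNA, mapped to WBcel235 with STAR 2.7.11b and estimated expression with DESeq2 1.42.1. Not given in the sources used here are the annotation release, the strand rule, the treatment of multiply mapping reads and whether pooling was by sum or mean. There was 1 column, for 25°C, that matched no sample and was not used. Counts were recovered by multiplying FPKM with coding lengths from Ensembl release 115 and dividing by each column's step. All values came out whole within 0.02. Genes with 2 to 4 counts over both columns scattered less between 20°C and 10°C than independent reads would (mean squared z 0.505). At such counts the counting intervals may be too wide. Variation between replicates is hidden by pooling and is in no interval, so intervals may also be too narrow. Ratios carry Clopper-Pearson and shares Wilson 95% intervals. Genes with 0 counts in 1 column and over 3 in the other were given a bound from 3 counts, and medians at the bound leave out genes with at most 3 counts in both.

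Named were dhs-25, each member with a clear difference, the 5 members of each family with the highest mean, and members with a listed role. Members and lists were chosen with earlier results of these data known. Roles are background knowledge. Alternatives were a pseudocount of 1 FPKM in place of 0.5, no minimum, median-of-ratios scaling and the transcript with the most counts. The calls were tested on simulated data. The simulated counts were independent draws without variation between replicates, so this checked the calculation and not how the calls hold in these data. Python 3.11.15, NumPy 2.4.6, pandas 2.3.3, SciPy 1.17.1 and Matplotlib 3.10.9 were used.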

Additional observations from a re-analysis of the deposited data

How the results depend on the processing

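No paired analysis was possible because the table holds 1 column per condition, pooled over both replicates, and for the same reason no replicate could be left out. Median-of-ratios scaling and the transcript with the most counts kept every count of 2-fold members within 1.5 times, and under these and a pseudocount of 1 FPKM none of the 125 log2 differences of named members left its interval, and none that was called changed sign. Among differences that were not called, 6 changed sign under median-of-ratios scaling, each at most 0.09 in size, and that of dhs-3 between 20°C and 10°C went from 0.21 to −0.20 with the other choice of transcript. A pseudocount of 1 FPKM lowered the cyp members that were higher at 10°C than at 20°C from 6 to 2, on day 3 than on day 1 from 1 to 0 and on day 5 than at 20°C from 3 to 0. It lowered the dhs members that were lower on day 5 than on day 3 from 5 to 2 and higher on day 5 than at 20°C from 5 to 3. Without the minimum on the mean (74 cyp and 30 dhs genes), 15 cyp members were higher and 11 lower at 10°C than at 20°C, and 2 dhs members were lower. On day 1 against 10°C 2 cyp members were then higher and 15 lower, on day 3 against day 1 2 were higher, on day 5 against day 3 1 was higher, and on day 5 against 20°C 5 were higher and 22 lower. These added calls rest on few counts. In alternatives chosen after seeing the data, the ratio of cyp shares without cyp-31A2, cyp-31A3 and cyp-31A5 went from 0.864 to 0.677 (day 1 against 10°C), from 0.757 to 0.543 (day 5 against day 3) and from 0.598 to 0.375 (day 5 against 20°C). The ratio of dhs shares without dhs-12 and dhs-22 went from 1.13 to 0.998, from 0.922 to 0.768 and from 1.17 to 0.688 for the same comparisons, and from 1.03 to 0.832 for day 3 against day 1. Depth limits the warm columns most, where 7 of 26 cyp and 15 of 23 dhs members had 10 counts over both.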
